A study of Mus musculus with 6 samples.

Results

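Adult cardiac fibroblasts (AFs) that had been cultured with immature cardiomyocytes were compared with the AF0 wells of the same single-cell chip, gene by gene. The co-culture group comprised the well sets AF1 and AF2, and the comparison group the well sets AF0_1 and AF0_2. A well was used if it held at least 500 non-mitochondrial genes and if its unique molecular identifier (UMI) counts of Col1a1, Col1a2, Col3a1, Dcn, Postn and Lum summed to more than those of Tnnt2, Tnni3, Myh6, Actc1 and Tnnc1. Of 440 adult wells, 438 reached the gene minimum and 430 were kept: 124 in AF1, 115 in AF2, 76 in AF0_1 and 115 in AF0_2. The 2 chips of the series held 2482 wells in all. Of the wells that reached the gene minimum, 4 were kept by a margin of at most 5 UMIs and 2 were left out by a margin of at most 5.

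The study asked how cardiac fibroblasts act on the maturation of cardiomyocytes. In the co-cultures, AFs from adult C57BL/6J mice were grown with cardiomyocytes of newborn mice of the same strain, after the fibroblasts had been cultured for several passages on their own. Cells in co-cultures were labelled with fluorescent dyes and sorted. Cells were then dispensed into nanowells and imaged, so that each well was meant to hold 1 living cell. The paper does not say whether the AF0 cells were labelled and sorted in the same way. The sources name no genetic change or drug for these wells. The sources used here do not state what the 0 in AF0 stands for or whether the numbers 1 and 2 mark separate cultures, and all 4 well sets came from 1 chip, each from its own position of the source plate. P-values below therefore measure only the spread between 2 well sets per group, which may be technical.

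Cardiac fibroblasts make and remodel the collagen-rich matrix of the heart. They also secrete chemokines and growth factors, answer interferon and NF-kB signals, and can turn into contractile myofibroblasts, a state that stiff culture plastic itself promotes. The epicardium, the mesothelial sheet around the heart, gives rise to many fibroblasts during development and is marked by genes such as Upk3b, Upk1b and Lrrn4.

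Summed UMIs per well set ran from 3993511 (AF0_1) to 8186496 (AF0_2), and the median well held 29120.0 to 52876 UMIs and 3593 to 5398 genes. Both AF0 sets held more genes per median well than either co-culture set. Levels are given in CPM, the UMI counts scaled to the same library total in every set. Fibroblast genes were present in all 4 sets. The 5 cardiomyocyte genes of the rule summed to 93.0 and 74.3 CPM in co-culture and 124 and 137 CPM in AF0. Levels of single genes are CPM further scaled by the trimmed mean of M-values (TMM). Well sets of 1 group differed by more than counting noise (chi-square per degree of freedom 19.8 in co-culture and 14.1 in AF0), which sums over different cells would do even from 1 culture. They were used as replicates because the well report names them separately. Across 3425 genes with a mean of at least 50 CPM, Pearson's r of log2 CPM was 0.950 within co-culture, 0.961 within AF0 and 0.759 to 0.779 between groups; genes are not independent replicates.

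Other features of the cells also separated the groups. The Y-linked genes Ddx3y (45.6 and 21.4 against 0.494 and 0.834 CPM) and Eif2s3y (18.7 and 20.1 against 1.23 and 1.31 CPM) were close to 0 in AF0, while Xist, which is expressed from the inactive X of females, was measured in every set (91.1 and 54.0 against 106 and 96.3 CPM). The share of cells from male and female animals and the culture condition therefore cannot be told apart in this comparison. The paper's methods name male mice unless otherwise specified, and do not give the sex of the animals behind each well set. The 8 epicardial markers summed to 388 and 365 CPM in AF0 and 14.7 and 18.1 CPM in co-culture. Only part of the list carried this signal: Upk1b, Upk3b and Lrrn4 were measured throughout AF0, whereas Wt1 had 0 and 20 UMIs there, Krt8 0 and 1, Krt18 13 and 11, and Msln 26 and 41. It was spread over the AF0 wells, whose median was 294 and 272 CPM per well against 0 in both co-culture sets. Macrophage markers summed to 658 CPM in AF1, 41.0 in AF2, 216 in AF0_1 and 51.7 in AF0_2, and 91.1% of those of AF1 lay in 5 wells. Endothelial markers summed to 424 and 332 CPM in co-culture and 638 and 531 CPM in AF0. Gm42418, a gene model that overlaps ribosomal RNA sequence, was at 37340.0 and 36709 CPM in co-culture and 68806 and 74887 CPM in AF0. The part of these features in the results that follow was not tested, and for some genes a value without the wells concerned is given.

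**Figure D1:**
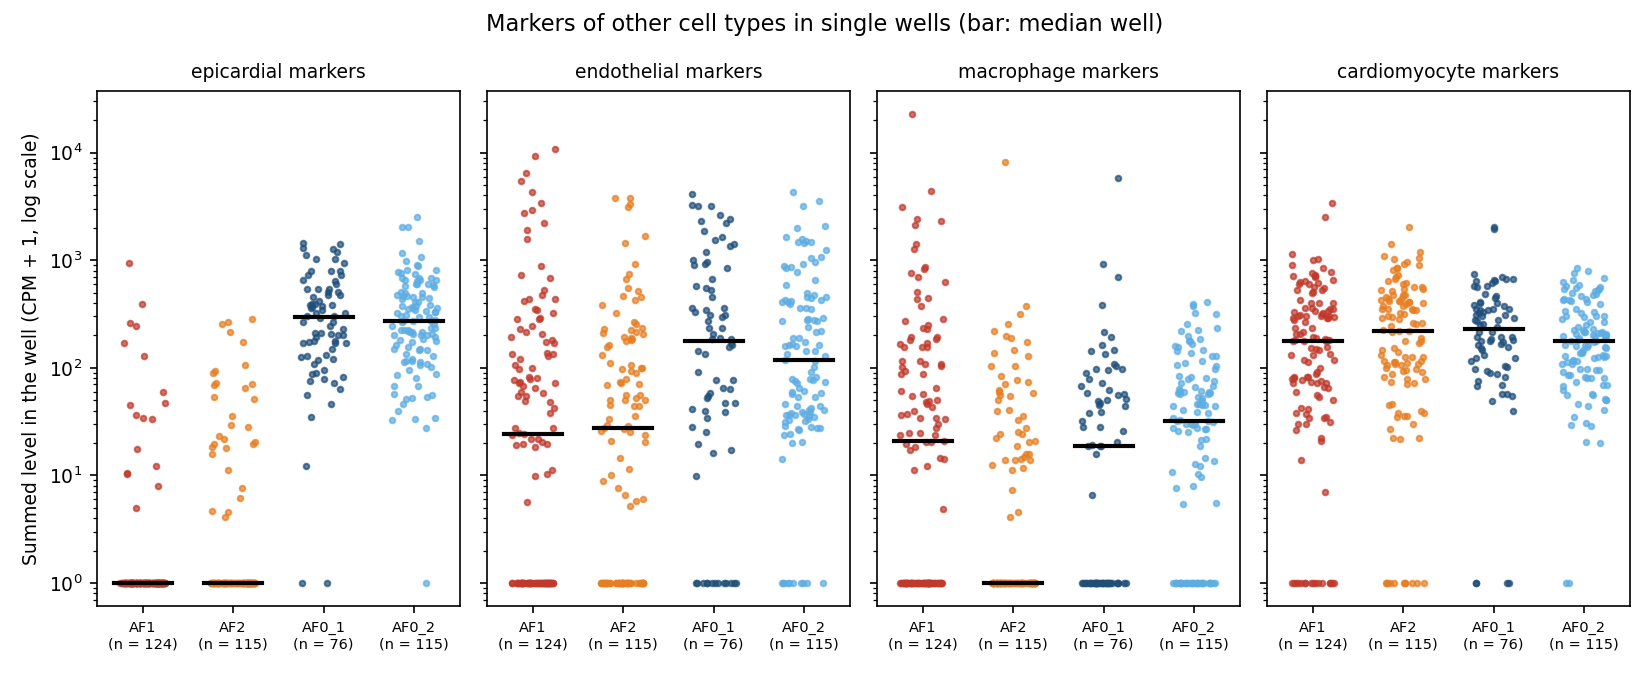
Summed level of 4 marker lists in each kept well (y axis, CPM + 1 on a log scale) for the well sets AF1, AF2, AF0_1 and AF0_2 (x axis); each point is 1 well and the bar is the median well. Epicardial markers lie at 0 in the median co-culture well and at 294 and 272 CPM in the median AF0 well, and the highest macrophage sum belongs to a single well of AF1.

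The groups differed in many genes. Of 13372 genes tested by edgeR's quasi-likelihood test, 1425 (10.7%) were called. A call needed a Benjamini-Hochberg adjusted p below 0.05 and a change of more than 0.58 on the log2 scale in either direction. Of the calls, 754 (5.64%) were higher and 671 (5.02%) lower in co-culture. These counts include 7 of the 11 genes by which wells were kept, from which nothing is read. Over the whole table the median change was 0.0014 on the log2 scale. Changes of more than 3 on the log2 scale were called for 107 rises and 119 falls. Levels of the 2 groups did not overlap for 3951 genes with the higher level in co-culture (29.5% of those tested) and for 3884 with the lower (29%). Without 1 AF0 set, whose group then rests on a single set assumed to vary like the other group, the count fell to 376 (without AF0_1) or 333 (without AF0_2). When wells whose epicardial sum reached 0.1 of the fibroblast sum were left out, 948 genes were called, 878 of them among the 1425. That step removed 36 and 56 wells from AF0_1 and AF0_2 and 3 and 0 from AF1 and AF2, and both sums it compares differed between the groups.

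**Figure D2:**
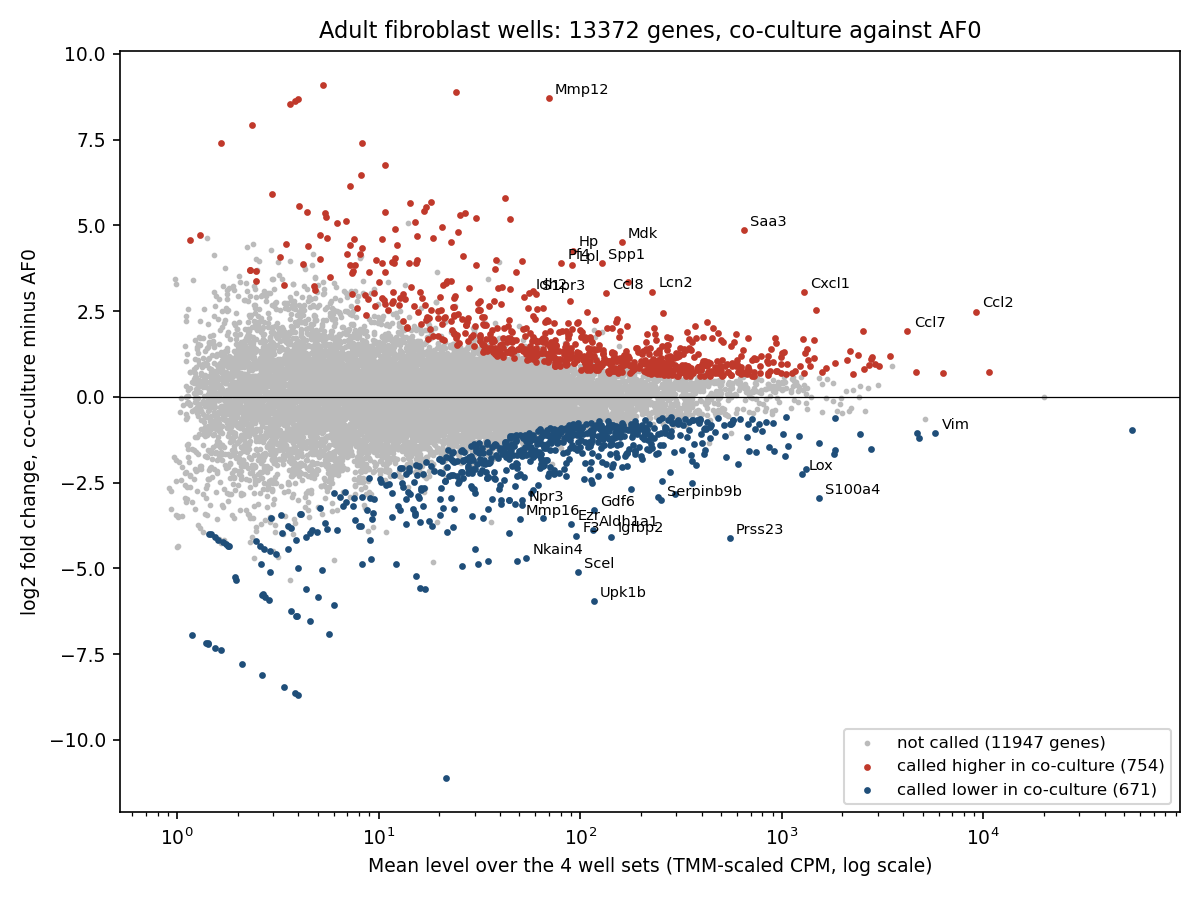
Log2 fold change of co-culture minus AF0 (y axis) against the mean level of each gene over the 4 well sets (x axis, TMM-scaled CPM, log scale); each point is 1 of 13372 genes, red if called higher and blue if called lower in co-culture. Ccl2 and Cxcl1 stand out among abundant genes that rose, and S100a4 and Prss23 among those that fell.

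The largest falls in co-culture among genes with a mean of at least 50 CPM and levels that did not overlap were those of Upk1b, Scel, Nkain4, Prss23 and Igfbp2. Upk1b, a uroplakin of urothelium and mesothelium (chr16:38773184-38800328 in GRCm38), was at 5.90 and 1.74 CPM in AF1 and AF2 and 233 and 226 CPM in AF0_1 and AF0_2. Upk1b gave a log2 fold change of -5.95 ± 0.47 (SE, adjusted p = 0.00131), with no overlap between the groups. Scel, which encodes sciellin of the cornified envelope, was at 3.12 and 7.51 CPM in AF1 and AF2 and 188 and 190.2 CPM in AF0_1 and AF0_2. Scel was thus lower in both co-culture sets, by a log2 fold change of -5.12 ± 0.39 (SE, adjusted p = 0.00125). Both genes were nearly absent from the co-cultured wells, and the AF0 sets lay close together. Nkain4, which encodes a protein that interacts with the sodium pump (6.07 and 2.01 against 118 and 89.3 CPM), and Ezr, the membrane-cytoskeleton linker ezrin (16.1 and 9.38 against 164 and 170.4 CPM), fell as well, with log2 fold changes of -4.71 ± 0.51 and -3.72 ± 0.31. Prss23, a secreted serine protease, was the most abundant of the 12, at 75.5 and 44.2 CPM in AF1 and AF2 and 1004 and 1087 CPM in AF0_1 and AF0_2. Prss23 was lower in either co-culture set than in AF0, with a log2 fold change of -4.13 ± 0.26 (SE, adjusted p = 0.00125).

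Among the other large falls were secreted and membrane proteins. Igfbp2, which binds insulin-like growth factors, was at 16.1 and 15.7 CPM in AF1 and AF2 and 261 and 276 CPM in AF0_1 and AF0_2. The groups did not overlap, and the log2 fold change of Igfbp2 was -4.08 ± 0.20 (SE, adjusted p = 0.0004). The remaining ones were Aldh1a1, a retinoic acid synthesis enzyme (17.5 and 11.7 against 219.5 and 213 CPM), F3, the tissue factor that starts coagulation (7.46 and 13.8 against 198 and 163 CPM), and Gdf6, a bone morphogenetic protein (11.8 and 31.0 against 225 and 200.2 CPM). The membrane protease Mmp16, the natriuretic peptide clearance receptor Npr3 and the serpin Serpinb9b fell too, with log2 fold changes of -3.57 ± 0.35, -3.14 ± 0.61 and -3.02 ± 0.26. Npr3 lost its call when either AF0 set was left out (adjusted p = 0.0613 and 0.0993). The fold changes of all 12 were below 0 in every alternative setting, which the rule that chose them as non-overlapping falls largely fixed in advance. The epicardial list moved with them: of its 6 tested markers Upk1b, Lrrn4 and Upk3b fell, 0 rose and 3 did not pass, with a median of -2.95. Without the wells of high epicardial sum, the log2 fold changes of Scel and Prss23, which that sum does not include, were -4.95 (adjusted p = 0.00193) and -4.09 (adjusted p = 0.00131). The AF0 wells kept by that step could still hold epicardial RNA below its limit. The part of the epicardial signal in these falls was therefore not tested.

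By the same limits, the largest rises were those of Mmp12, Saa3, Mdk, Hp and Pf4. Mdk, the heparin-binding growth factor midkine (chr2:91929805-91932297 in GRCm38), was at 351 and 264 CPM in AF1 and AF2 and 13.3 and 13.5 CPM in AF0_1 and AF0_2. Mdk gave a log2 fold change of 4.52 ± 0.23 (SE, adjusted p = 0.000449), with no overlap between the groups. Its rise was spread over wells: the median well held 167 CPM in AF1, 88.3 in AF2 and 0 in both AF0 sets. Lpl, the lipoprotein lipase, was at 144 and 197 CPM in AF1 and AF2 and 16.3 and 8.22 CPM in AF0_1 and AF0_2. Lpl was thus higher in both co-culture sets, by a log2 fold change of 3.84 ± 0.37 (SE, adjusted p = 0.00204). Cxcl1, which attracts neutrophils, was at 2171 and 2420.1 CPM in AF1 and AF2 and 262 and 288 CPM in AF0_1 and AF0_2. Cxcl1 was higher in either co-culture set than in AF0, with a log2 fold change of 3.06 ± 0.13 (SE, adjusted p = 0.000283). The mitochondrial isocitrate dehydrogenase Idh2 (96.5 and 104 against 7.66 and 16.3 CPM) and the sphingosine-1-phosphate receptor S1pr3 (111 and 105 against 9.14 and 17.3 CPM) rose as well. Lcn2, the iron-siderophore carrier lipocalin 2, was at 371 and 442 CPM in AF1 and AF2 and 58.8 and 38.7 CPM in AF0_1 and AF0_2. The groups did not overlap, and the log2 fold change of Lcn2 was 3.07 ± 0.24 (SE, adjusted p = 0.00131).

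Several of the large rises were carried by few wells, against 13.0% to 21.7% of all UMIs in the 5 deepest wells of a set. The 5 wells with the most UMIs of the acute phase gene Saa3 held 87.5% of them in AF1 and 95.7% in AF2, and 59.7% and 53.4% in AF0_1 and AF0_2. Saa3 was at 676 and 1828 CPM in AF1 and AF2 and 38.0 and 47.0 CPM in AF0_1 and AF0_2. Saa3 gave a log2 fold change of 4.87 ± 0.47 (SE, adjusted p = 0.00199), with no overlap between the groups. Without those 5 wells of each set Saa3 was at 86.9 and 85.6 against 16.8 and 24.5 CPM, so the groups still did not overlap. The corresponding values were 48.8 and 52.8 against 2.40 and 4.19 CPM for Hp (haptoglobin), 40.8 and 72.4 against 1.18 and 4.08 CPM for the platelet chemokine Pf4 and 47.1 and 49.2 against 4.35 and 8.26 CPM for Spp1 (osteopontin). With all wells these were 249 and 99.9 against 9.63 and 8.57 CPM (Hp), 183 and 120.0 against 9.38 and 10.6 CPM (Pf4) and 368 and 112 against 14.8 and 16.9 CPM (Spp1). Ccl8, a monocyte chemokine (128 and 351 against 29.6 and 29.5 CPM), was at 7.88 and 47.0 against 9.83 and 12.4 CPM without its 5 top wells, where the groups overlapped. Mmp12, macrophage elastase, was at 267 and 11.8 CPM in AF1 and AF2 and 0 and 0.476 CPM in AF0_1 and AF0_2, with 97.4% of its AF1 UMIs in 5 wells. Its fitted log2 fold change of 8.70 ± 1.78 (adjusted p = 0.0245) rests on 0 and 4 UMIs in AF0 and was not past the threshold by limma-voom (adjusted p = 0.31) or without either AF0 set (adjusted p = 0.114 and 0.124). The macrophage list had 0 called members of 9 tested and its sum was highest in AF1 (658 CPM). With wells led by macrophage or endothelial genes left out, too few UMIs of Mmp12 remained for a test, and the log2 fold change of Spp1 was 2.79 (adjusted p = 0.00597). Leaving out AF0_2 ended the call of Spp1 (adjusted p = 0.0568), and leaving out either AF0 set ended that of Ccl8 (0.0521 and 0.0669).

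**Figure D3:**
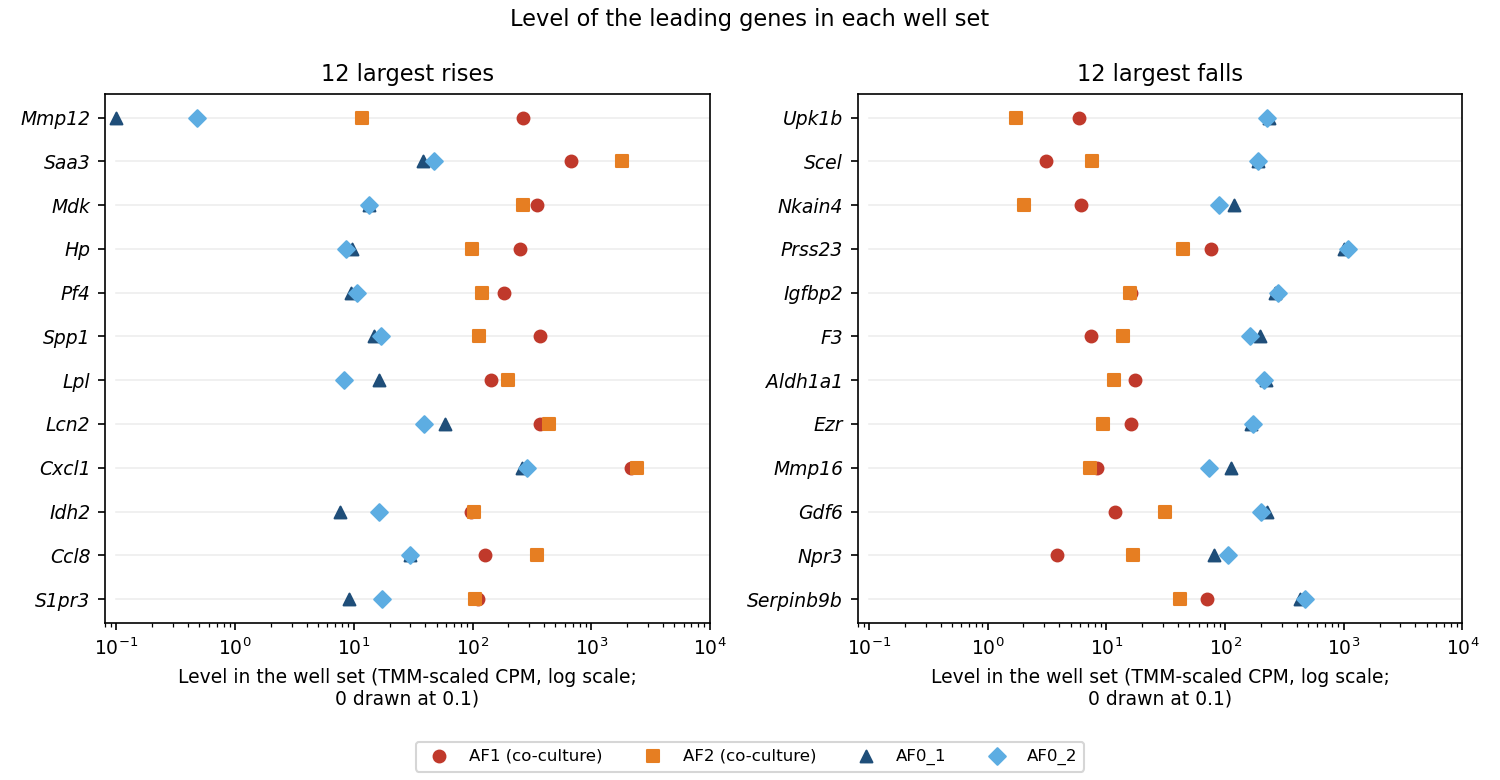
Level of the 12 largest rises (left) and 12 largest falls (right) in each of the 4 well sets (x axis, TMM-scaled CPM, log scale, with 0 drawn at 0.1); each symbol is 1 well set. For every gene shown the co-culture sets (red, orange) lie on 1 side of the AF0 sets (blue), as the rule for naming required, and AF1 and AF2 lie far apart for Mmp12 (267 and 11.8 CPM).

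Chemokine genes made up one of the lists with the most rises. Of 21 chemokine and cytokine genes tested, 10 rose, 2 fell and 9 did not pass the test (median log2 fold change 1.45), beside 0.0014 for all tested genes. Of all tested genes 5.64% were called higher and 5.02% lower. This and the later list counts stand beside these shares, and some small counts lie near them. Ccl2, the main monocyte attractant, was at 15717 and 15435 CPM in AF1 and AF2 and 2285 and 3268 CPM in AF0_1 and AF0_2. Ccl2 was thus higher in both co-culture sets, by a log2 fold change of 2.49 ± 0.16 (SE, adjusted p = 0.00125). Its neighbour Ccl7 (7039 and 6246 against 1416 and 2122 CPM) and the neutrophil chemokine Cxcl5 (2111 and 2944 against 298 and 568 CPM) rose by 1.91 ± 0.19 and 2.54 ± 0.31 on the log2 scale. Cxcl10, an interferon-induced chemokine, was low in co-culture (12.8 and 29.4 CPM) and lower still in AF0 (0.494 and 0.476 CPM). Its 5 top wells held 79.7% of its UMIs in AF1 and 79.9% in AF2. Cxcl10 did not keep the call in every fit that left out a well set. Il1rn, an antagonist at the interleukin receptor for IL1, had 58 and 33 UMIs in AF1 and AF2 and 0 in both AF0 sets, which made it at least 28.5-fold higher against a floor of 3 UMIs over the group. Of its UMIs 91.4% and 100.0% lay in 5 wells. Csf1, the macrophage growth factor, went the other way, at 484 and 488 CPM in AF1 and AF2 and 1745 and 1458 CPM in AF0_1 and AF0_2. Csf1 was lower in either co-culture set than in AF0, with a log2 fold change of -1.72 ± 0.13 (SE, adjusted p = 0.00125). Ptgs2, the inducible prostaglandin synthase, was the other member that fell.

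Of 16 genes of the NF-kB and acute phase list, 6 rose, 0 fell and 10 did not pass the test (median log2 fold change 0.69). The 6 that rose were Saa3, Hp, the metalloreductase Steap4 (18.9 and 38.9 against 0.494 and 2.98 CPM), Lcn2, the mitochondrial superoxide dismutase Sod2 (508 and 562 against 161 and 128 CPM) and Nfkbia, the NF-kB inhibitor that NF-kB itself induces. Nfkbia was at 888 and 969 CPM in AF1 and AF2 and 255 and 268 CPM in AF0_1 and AF0_2. The groups did not overlap, and the log2 fold change of Nfkbia was 1.83 ± 0.13 (SE, adjusted p = 0.00125). The Steap4 signal lay in few wells, with 77.1% and 77.9% of its co-culture UMIs in 5 wells. The NF-kB subunit genes Nfkb1, Nfkb2 and Relb, the adhesion gene Vcam1 and the Cebpb and Cebpd factors did not pass the test. In the complement list, 2 rose, 1 fell and 5 did not pass the test (median log2 fold change 0.52), of 8 tested. The C1 protease gene C1s1 (26.0 and 15.5 against 1.98 and 3.81 CPM) and the C1 inhibitor Serping1 (250 and 338 against 122 and 112 CPM) rose. For C1s1, 83.3% and 74.1% of the co-culture UMIs lay in 5 wells.

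Interferon response genes made up the list with the highest count of rises, and it was among the longest lists. The shorter chemokine list had 10 rises among 21 tested genes, and 5.64% of all tested genes were called higher. Of 39 tested interferon response genes, 18 rose, 0 fell and 21 did not pass the test (median log2 fold change 1.53). The lowest member stood at 0.02, so every tested member was on the side of co-culture. The immunoproteasome subunits Psmb9 (16.7 and 23.2 against 0.741 and 0.834 CPM) and Psmb8 (61.3 and 78.7 against 8.15 and 2.86 CPM), the GTPase Igtp and the nucleic acid sensor Zbp1 (75.3 and 85.4 against 9.88 and 8.22 CPM) were among those that rose. Igtp was at 53.8 and 45.7 CPM in AF1 and AF2 and 3.21 and 2.62 CPM in AF0_1 and AF0_2. Igtp gave a log2 fold change of 4.10 ± 0.43 (SE, adjusted p = 0.00257), with no overlap between the groups. Its 5 top wells held 78.1% of its UMIs in AF1 and 60.7% in AF2. Without the 5 top wells of each set Igtp was at 12.5 and 18.7 against 0.563 and 0.659 CPM. Psmb9 also lay in few wells, with 72.9% and 65.9% of its co-culture UMIs in 5 wells. Oasl2 (22.04 and 122 against 7.16 and 2.38 CPM) rose mainly in AF2 and lost its call without AF2 (adjusted p = 0.107) and by limma-voom (0.106). Mx2 had 49 and 55 UMIs in co-culture and 0 in both AF0 sets, at least 32.6-fold higher by the same floor, with 95.9% and 90.9% of its UMIs in 5 wells. At the abundant end, B2m, the light chain of class I antigen-presenting molecules, was at 2979.8 and 3554 CPM in AF1 and AF2 and 2004 and 1686 CPM in AF0_1 and AF0_2. B2m was thus higher in both co-culture sets, by a log2 fold change of 0.82 ± 0.13 (SE, adjusted p = 0.012). B2m and Psmb9 did not keep the call in every fit that left out a well set. The class I genes H2-D1, H2-K1 and the transporter gene Tap1 did not pass the test. The AF0 sets differed within the list, with higher levels in AF0_1 than in AF0_2 of Rtp4 (133 and 232 against 54.1 and 13.2 CPM), Ifi44 (80.7 and 115 against 29.1 and 9.77 CPM) and Usp18 (48.1 and 82.3 against 14.6 and 4.64 CPM).

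The promoters of these lists were read for 2 letter patterns: GGG, any 2 bases and TTTCC, a form of the NF-kB (kB) site, and GAAA, any 2 bases and GAAA, the core of the interferon-stimulated response element (ISRE). Both strands were read, and each pattern was counted whether or not it overlapped the other. The window was the 250 bases upstream of each RefSeq start in GRCm38.p6. The kB letters were found in 6 of 20 genes of the chemokine list with a promoter entry, and in 3 of 6 of those that rose. In the NF-kB and acute phase list they were in 4 of 12 genes, and in 2 of 5 that rose. The ISRE letters were found in 14 of 30 interferon response genes and in 5 of 10 that rose, which is a similar share of the whole list and of its rises. Of all 27025 genes with an entry, 1.65% held the kB and 3.46% the ISRE letters. Among all genes called higher the shares were 3.35% (kB) and 6.92% (ISRE), and among all called lower 1.36% and 2.91%. A match is a description of letters in the window, not a bound site. Cxcl1 and Nfkbia are shown as genes that rose and carry the kB letters, Igtp for the ISRE letters, and B2m because its window holds both; capitals mark the matches.
Cxcl1 (chr5:90890995-90891244, plus strand): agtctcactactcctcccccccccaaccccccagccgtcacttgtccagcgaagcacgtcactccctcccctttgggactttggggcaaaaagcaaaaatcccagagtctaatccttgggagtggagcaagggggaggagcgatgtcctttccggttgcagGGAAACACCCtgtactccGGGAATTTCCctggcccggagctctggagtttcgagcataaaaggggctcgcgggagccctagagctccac
Nfkbia (chr12:55492648-55492897, minus strand): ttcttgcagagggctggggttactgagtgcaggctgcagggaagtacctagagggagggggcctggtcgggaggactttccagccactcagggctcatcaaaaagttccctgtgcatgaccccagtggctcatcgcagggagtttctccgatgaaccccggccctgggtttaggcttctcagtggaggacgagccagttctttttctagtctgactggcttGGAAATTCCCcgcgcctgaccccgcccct
Igtp (chr11:58199306-58199555, plus strand): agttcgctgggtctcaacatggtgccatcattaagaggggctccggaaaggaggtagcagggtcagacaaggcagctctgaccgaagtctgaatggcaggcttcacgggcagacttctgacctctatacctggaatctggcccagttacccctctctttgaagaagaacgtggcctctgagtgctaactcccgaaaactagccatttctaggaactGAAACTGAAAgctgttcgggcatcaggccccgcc
B2m (chr2:122147437-122147686, plus strand): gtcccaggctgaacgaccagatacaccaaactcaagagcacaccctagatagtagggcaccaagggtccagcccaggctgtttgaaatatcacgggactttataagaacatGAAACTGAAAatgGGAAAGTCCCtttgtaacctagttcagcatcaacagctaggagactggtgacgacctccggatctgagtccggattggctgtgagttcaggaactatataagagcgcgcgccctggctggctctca
Between the last matched base and the start lay 61 bases in Cxcl1 for the nearer of its 2 matches, 19 in Nfkbia and 24 in Igtp. In B2m the kB letters ended 116 bases and the ISRE letters 129 bases before the start.

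Matrix genes moved in both directions. Of 18 collagens tested, 4 rose, 3 fell and 11 did not pass the test (median log2 fold change 0.48). Col14a1, a fibril-associated collagen, was at 40.3 and 78.5 CPM in AF1 and AF2 and 1.48 and 1.67 CPM in AF0_1 and AF0_2. Col14a1 was higher in either co-culture set than in AF0, with a log2 fold change of 5.21 ± 0.53 (SE, adjusted p = 0.00236). Col6a3 rose as well (13.9 and 17.6 against 0.988 and 0.596 CPM). Col6a3 and P4ha2, given below, did not keep the call in every fit that left out a well set. The basement membrane chain Col4a5 (28.1 and 40.6 against 102 and 93.2 CPM) and the network collagen Col8a1 (214 and 202 against 448 and 486 CPM) fell. Among 20 collagen processing genes, 3 rose, 2 fell and 15 did not pass the test (median log2 fold change -0.11). Lox, the enzyme that cross-links collagen, was at 442 and 435 CPM in AF1 and AF2 and 2209 and 1974 CPM in AF0_1 and AF0_2. The groups did not overlap, and the log2 fold change of Lox was -2.25 ± 0.12 (SE, adjusted p = 0.000449). The lysyl hydroxylase Plod2 fell by 1.66 on the log2 scale. The procollagen C-proteinase enhancer Pcolce (473 and 546 against 197 and 189.7 CPM) and the prolyl hydroxylase subunit P4ha2 (103 and 90.7 against 32.6 and 50.9 CPM) rose. The collagen genes Col1a1, Col1a2 and Col3a1 and the genes Dcn, Postn and Lum, by which wells were kept, are given as a description: Col1a1 was at 2729 and 3543 CPM in AF1 and AF2 and 1304 and 1161 CPM in AF0_1 and AF0_2, and the highest relative change among the 6 was that of Lum (105 and 88.2 against 2.96 and 8.69 CPM).

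Of 30 matrix glycoproteins and proteoglycans, 7 rose, 7 fell and 16 did not pass the test (median log2 fold change -0.14). The microfibril genes Fbn2 (17.5 and 38.6 against 0.247 and 0.715 CPM) and Mfap2 (75.8 and 97.7 against 4.198 and 1.07 CPM) and the TGF-beta-induced adhesion protein Tgfbi (38.3 and 66.5 against 2.96 and 0.119 CPM) were close to absent in AF0 and rose in co-culture. The hyaluronan synthase gene Has1, at 2.47 and 3.57 CPM in AF0, was at 0.173 and 0.134 CPM in co-culture and lost its call by limma-voom (adjusted p = 0.0595). In the laminin and basement membrane list of 10, 0 rose, 1 fell and 9 did not pass the test (median log2 fold change -0.54), beside 5.02% of all tested genes called lower. The one called, Nid2, rested on 4 and 5 against 42 and 39 UMIs and lost its call by limma-voom (adjusted p = 0.0818). Matrix proteases and their inhibitors counted 8 rises and 4 falls among 23 tested, with a median of 0.59. The metalloproteinase inhibitor Timp3 was at 93.0 and 64.7 CPM in AF1 and AF2 and 451 and 409 CPM in AF0_1 and AF0_2. Timp3 gave a log2 fold change of -2.45 ± 0.21 (SE, adjusted p = 0.00162), with no overlap between the groups. In contrast, the thrombin inhibitor Serpine2 (257 and 292 against 63.7 and 67.3 CPM) and the metalloprotease Adam12 (29.0 and 81.8 against 9.63 and 6.43 CPM) rose.

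Contractile genes fell in part in co-culture. Of 24 smooth muscle and myofibroblast genes, 2 rose, 9 fell and 13 did not pass the test (median log2 fold change -0.58). Acta2, the smooth muscle actin by which myofibroblasts are usually recognised, was at 1402 and 1375 CPM in AF1 and AF2 and 1258 and 1532 CPM in AF0_1 and AF0_2, a log2 fold change of -0.01 ± 0.13 that did not pass the test (adjusted p = 0.981). Tagln (transgelin) was at 683 and 618 CPM in AF1 and AF2 and 1245 and 1494 CPM in AF0_1 and AF0_2. Tagln was thus lower in both co-culture sets, by a log2 fold change of -1.07 ± 0.14 (SE, adjusted p = 0.00499). The actin-binding caldesmon Cald1 was at 3128 and 2990.4 CPM in AF1 and AF2 and 6054 and 6643 CPM in AF0_1 and AF0_2. Cald1 was lower in either co-culture set than in AF0, with a log2 fold change of -1.05 ± 0.10 (SE, adjusted p = 0.00178). The focal adhesion gene Tns1 (105 and 94.6 against 484 and 436 CPM), the calponin Cnn1 (18.7 and 10.3 against 48.2 and 56.4 CPM) and the actinins Actn4 (163 and 190.3 against 389 and 385 CPM) and Actn1 (360.1 and 300.0 against 769 and 674 CPM) fell as well. The members that rose were Tagln2 and Pdlim7.

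In the TGF-beta and BMP pathway, 2 rose, 6 fell and 21 did not pass the test (median log2 fold change -0.14) among 29 tested. Over all tested genes, 5.64% were called higher and 5.02% lower. By role, the ligand Bmp4 (17.7 and 8.58 against 71.6 and 69.1 CPM), the activin trap Fst (41.1 and 16.6 against 139 and 144 CPM) and the receptor Tgfbr2 (14.1 and 14.9 against 63.0 and 48.4 CPM) fell. So did the intracellular brakes Ski (32.3 and 52.7 against 229 and 135 CPM) and Smad6 (35.4 and 52.8 against 156 and 178 CPM), and Smad4, the shared signal carrier. The target genes Id3 (718 and 760.2 against 369.9 and 415 CPM) and Id2 rose. The ligands Tgfb1, Tgfb2 and Tgfb3 did not pass the test. Bmp4, Fst, Tgfbr2, Ski, Smad6 and Id3 each lost the call in some fit that left out a well set.

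Growth factor genes were split, with 4 rises, 4 falls and 18 not past the test among 26, and a median of -0.19. Besides Mdk, its relative Ptn (pleiotrophin, 19.8 and 12.7 against 0.247 and 0.119 CPM), the hepatocyte growth factor Hgf (19.4 and 25.5 against 1.23 and 1.67 CPM) and Angptl2 rose. The Hgf signal lay in few wells (91.1% and 91.1% of its co-culture UMIs in 5 wells), and so did that of Ptn (79.8% and 71.6%). The neurotrophin Bdnf was at 64.4 and 31.6 CPM in AF1 and AF2 and 326 and 290.0 CPM in AF0_1 and AF0_2. The groups did not overlap, and the log2 fold change of Bdnf was -2.69 ± 0.33 (SE, adjusted p = 0.0045). Igf1, the insulin-like growth factor (37.3 and 40.5 against 140.3 and 132 CPM), Pdgfa, a mitogen of mesenchymal cells (136 and 146 against 382 and 369 CPM), and Gas6 fell too. Of 8 IGF binding proteins, 1 rose, 2 fell and 5 did not pass the test (median log2 fold change -0.00011). Igfbp2 and Igfbp4 (31.6 and 53.1 against 113 and 147 CPM) fell and Igfbp3 (29.0 and 51.3 against 7.41 and 5.84 CPM) rose. The Igfbp3 signal also lay in few wells, with 93.4% and 93.2% of its co-culture UMIs in 5 wells. Without the 5 top wells of each set Igfbp3 was at 1.95 and 3.85 against 0.813 and 0.535 CPM. Sfrp2, a secreted Wnt modulator (33.7 and 25.3 against 1.73 and 0.238 CPM), was the only called gene of 17 Wnt-related genes by this test. That is close to the 5.64% of all tested genes called higher. The 5 top wells held 76.8% and 78.8% of the co-culture UMIs of Sfrp2. Among 22 integrin and adhesion genes, 2 rose, 4 fell and 16 did not pass the test (median log2 fold change -0.22). Itga4, a receptor for fibronectin and Vcam1 (14.4 and 8.44 against 109 and 73.4 CPM), Itga9 (4.51 and 5.36 against 19.0 and 23.1 CPM) and Ncam1 (35.4 and 34.8 against 74.6 and 82.8 CPM) were among the falls. The vitronectin receptor chain Itgb3 (25.9 and 45.0 against 5.19 and 4.29 CPM) was among the rises.

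Cell cycle genes rose or did not pass the test. Of 41 cell cycle genes, 8 rose, 0 fell and 33 did not pass the test (median log2 fold change 0.70). Tyms, the thymidylate synthase, was at 226 and 257 CPM in AF1 and AF2 and 58.0 and 84.2 CPM in AF0_1 and AF0_2. Tyms gave a log2 fold change of 1.76 ± 0.23 (SE, adjusted p = 0.00539), with no overlap between the groups. The replication genes Mcm6 (64.2 and 70.1 against 12.3 and 27.9 CPM), Uhrf1 (40.4 and 69.3 against 17.5 and 16.8 CPM) and Pcna (89.2 and 131 against 34.1 and 47.0 CPM) rose too. Mcm6, Uhrf1 and Pcna did not keep the call in every fit that left out a well set, nor did Cdkn2a and Mdm2, given below. The list of G1 cyclins, CDK inhibitors and p53 targets had 0 rises and 4 falls of 23 (median -0.48). These were Cdkn2a, the locus of p16 and p19ARF (7.98 and 8.18 against 40.7 and 37.2 CPM), the p53 targets Ccng1 (154 and 149 against 519 and 684 CPM) and Mdm2 (112 and 91.9 against 215 and 187 CPM), and cyclin D2. Ccnd2 was at 1009 and 740.0 CPM in AF1 and AF2 and 2654 and 2845 CPM in AF0_1 and AF0_2. Ccnd2 was thus lower in both co-culture sets, by a log2 fold change of -1.65 ± 0.16 (SE, adjusted p = 0.00203).

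Among 21 immediate early genes, which stimuli and tissue dissociation induce within minutes, 7 rose, 0 fell and 14 did not pass the test (median log2 fold change 0.88). Myc (33.7 and 45.6 against 5.93 and 9.29 CPM), Klf2 (85.9 and 140.1 against 27.2 and 20.7 CPM), Jun (229.7 and 271 against 85.0 and 47.5 CPM) and Ier2 (94.6 and 85.5 against 21.98 and 31.6 CPM) led the rises. Of these, only Jun kept the call in every fit that left out a well set. Egr1, a factor that growth signals induce, was at 360.2 and 469 CPM in AF1 and AF2 and 117 and 131 CPM in AF0_1 and AF0_2. Egr1 was higher in either co-culture set than in AF0, with a log2 fold change of 1.74 ± 0.18 (SE, adjusted p = 0.00272). Heat shock and ER stress genes were split: 7 rose, 4 fell and 12 did not pass the test (median log2 fold change 0.49) among 23. The ER stress genes Herpud1 (153 and 110.3 against 40.5 and 57.9 CPM) and Trib3 (20.5 and 22.9 against 3.70 and 5.48 CPM) rose, but did not keep the call in every such fit. The chaperone genes Hsp90aa1 (847 and 884 against 2101 and 2300.0 CPM) and Hspa1b (22.4 and 19.7 against 60.0 and 49.8 CPM) fell. In the NRF2 and oxidative stress list of 17, 5 rose, 3 fell and 9 did not pass the test (median log2 fold change -0.49). The summed level of the list was higher in co-culture (9885 and 9158 against 6661 and 6679 CPM). Heme oxygenase Hmox1 (140.2 and 133 against 318 and 411 CPM) and the glutathione synthesis subunit Gclm (85.2 and 49.5 against 169 and 153 CPM) fell. The cystine transporter Slc7a11 (35.2 and 38.5 against 12.6 and 7.86 CPM) and the glutathione transferase Mgst1 (556 and 519.5 against 261 and 197 CPM) rose.

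Glycolysis and respiration genes rose or did not pass the test. Of 22 glycolysis and hypoxia genes, 8 rose, 0 fell and 14 did not pass the test (median log2 fold change 0.73). The lactate exporter Slc16a3 (68.4 and 79.9 against 2.22 and 13.1 CPM), the oxygen sensor Egln3 (48.9 and 52.3 against 4.94 and 6.19 CPM), Bnip3 (171 and 214 against 71.4 and 36.0 CPM) and the kinase Pdk1 (15.4 and 22.5 against 1.98 and 4.41 CPM) were the largest. Of 34 nuclear oxidative phosphorylation genes, 10 rose, 0 fell and 24 did not pass the test (median log2 fold change 0.51). The changes were small, as for the complex I subunit Ndufb8 (620.2 and 486 against 281 and 307 CPM, log2 fold change 0.91 ± 0.16 (SE), adjusted p = 0.0168) and the ATP synthase subunits Atp5o (0.78 ± 0.14) and Atp5c1 (0.78 ± 0.18), and Ndufb9 rose by 0.72 ± 0.16. Ndufb8, Atp5o, Atp5c1 and Ndufb9 did not keep the call in every fit that left out a well set. In cholesterol and lipid synthesis, 0 rose, 3 fell and 21 did not pass the test (median log2 fold change -0.50) among 24, beside 5.02% of all tested genes called lower. Among the falls were Acly, which makes cytosolic acetyl-CoA (20.0 and 20.9 against 57.8 and 61.5 CPM), and Sc5d, a late enzyme of the pathway (23.6 and 23.5 against 63.7 and 64.7 CPM).

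**Figure D4:**
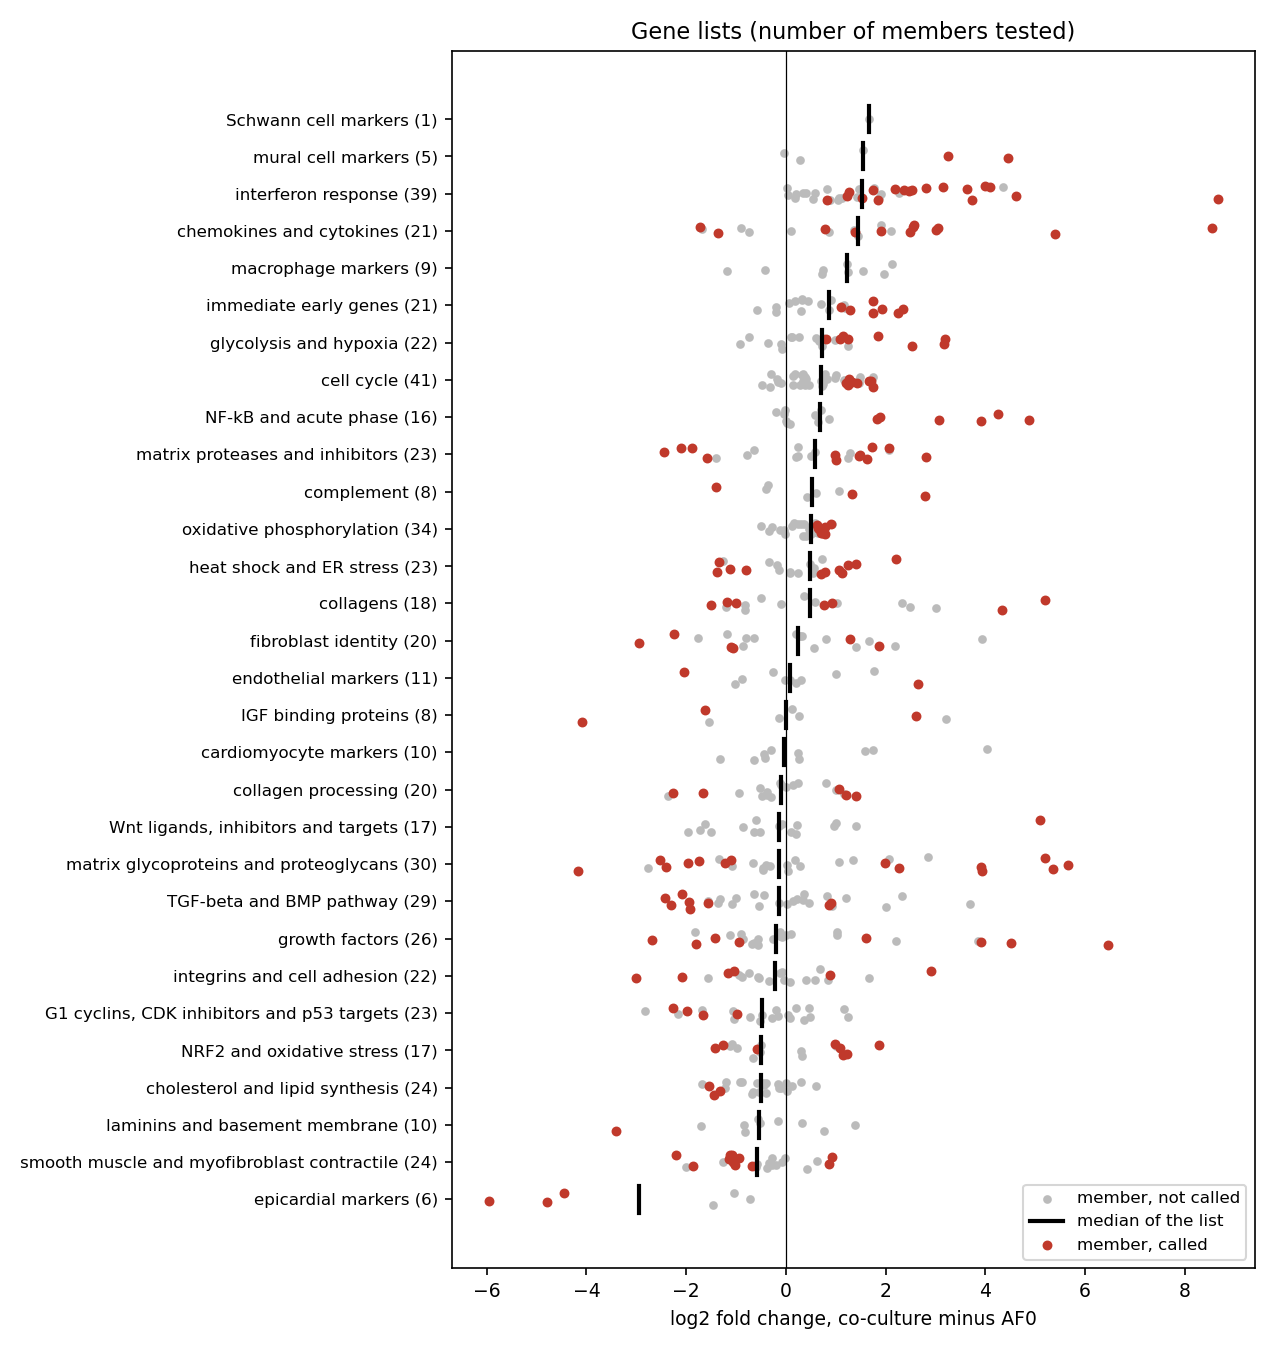
Log2 fold change of co-culture minus AF0 (x axis) of every tested member of 30 gene lists (y axis, number tested in parentheses); red points are called, grey points are not, and the black bar is the list's median. Interferon response (median 1.53) and chemokines (1.45) lie to the right of 0, contractile genes (-0.58) and epicardial markers (-2.95) to the left.

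Of 20 tested fibroblast identity genes outside the well rule, 2 rose, 4 fell and 14 did not pass the test (median log2 fold change 0.25). S100a4, known as fibroblast-specific protein and also found in immune cells, was at 377 and 326 CPM in AF1 and AF2 and 2596 and 2804 CPM in AF0_1 and AF0_2. The groups did not overlap, and the log2 fold change of S100a4 was -2.94 ± 0.13 (SE, adjusted p = 0.000283). Vim, the vimentin of mesenchymal cells, was at 3238 and 4287 CPM in AF1 and AF2 and 7302 and 8308 CPM in AF0_1 and AF0_2. Vim gave a log2 fold change of -1.05 ± 0.15 (SE, adjusted p = 0.00675), with no overlap between the groups. Gelsolin (Gsn, 26.4 and 28.4 against 109 and 149 CPM) fell too. The matrix protein Fbln1 (38.2 and 46.2 against 10.1 and 13.0 CPM) and the fibroblast factor Tcf21 (42.0 and 51.6 against 19.3 and 18.8 CPM) rose. Tcf21 had an adjusted p of 0.0496 that was no longer under the threshold with DESeq2 size factors (0.0501). Pdgfra and Pdgfrb, Ddr2 and Thy1 did not pass the test. Of the marker lists of other cells, 0 of 10 cardiomyocyte markers were called. Atp2a2 (169.5 and 201 against 285 and 173 CPM) and Ttn (10.1 and 10.1 against 22.5 and 9.29 CPM) were the most abundant. In the macrophage list, Lyz2 (352 and 21.3 against 74.1 and 23.0 CPM) and Fcer1g (97.9 and 4.96 against 41.7 and 2.62 CPM) were high in AF1 and AF0_1 and did not pass the test. Of 11 endothelial markers, Fabp4, a fatty acid carrier (22.04 and 29.6 against 4.94 and 3.33 CPM), rose and Emcn, endomucin (81.4 and 30.6 against 224 and 237 CPM), fell. For Fabp4, 70.9% and 78.7% of the co-culture UMIs lay in 5 wells. Of 5 mural cell markers, Cspg4 (39.9 and 35.4 against 6.17 and 2.02 CPM) and Rgs5 (6.59 and 6.84 against 0 and 0.476 CPM) rose. Rgs5 lost its call with the complete well filter of the study (adjusted p = 0.0672). The 1 tested Schwann cell marker, S100b, did not pass the test (5.55 and 13.5 against 5.19 and 1.07 CPM).

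Some genes that the study discusses as signals between cells were also read. Cxcl12, a chemokine of stromal cells, was at 381 and 400.4 CPM in AF1 and AF2 and 219 and 232 CPM in AF0_1 and AF0_2. Cxcl12 was thus higher in both co-culture sets, by a log2 fold change of 0.79 ± 0.14 (SE, adjusted p = 0.0166). Without the 5 wells of each set with the most Cxcl12 its levels were 218 and 159 against 164 and 206 CPM, which overlapped between groups. With each well weighted equally the change did not pass the test (log2 fold change 0.38, adjusted p = 0.154). The laminin chains Lamc1 (68.4 and 83.6 against 158 and 110.3 CPM, adjusted p = 0.0782) and Lama2 (10.8 and 21.6 against 67.9 and 38.6 CPM, adjusted p = 0.0592) were lower in both co-culture sets but did not pass the test. Pgf, the placental growth factor, stood at 10.6 and 10.1 against 1.98 and 7.86 CPM (adjusted p = 0.419).

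Neonatal fibroblasts (NFs) of the same chip allowed a parallel contrast, NF1 and NF2 in co-culture against NF0_1 and NF0_2, from 484 wells kept by the same rule. The kept NF wells carried more RNA of the 5 cardiomyocyte genes of the rule (670.2 to 1366 against 74.3 to 137 CPM in the adult sets). Sums of the 25 cardiomyocyte markers outside the rule overlapped. These were 308 (NF1), 425 (NF2), 502 (NF0_1) and 828 CPM (NF0_2), against 247 (AF1), 253 (AF2), 366 (AF0_1) and 232 CPM (AF0_2). The difference between the adult and the neonatal contrast, tested as an interaction over 8 well sets, was called for 124 of 13917 genes (0.891%), 72 (0.517%) with the higher change in adult cells and 52 (0.374%) with the lower. Leaving out 1 well set moved that count to between 4 (without AF0_2) and 333 (without NF1). It was 6 without AF0_1, 11 without NF0_1, 12 without NF0_2, 24 without AF2 and 39 without AF1. Leaving out wells with cardiomyocyte genes, which removed most NF wells, gave 15.

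Cxcl1 and Ccl2 rose in both contrasts. Cxcl1 rose by 3.06 ± 0.13 in adult and by 3.40 ± 0.20 (adjusted p = 7e-05) in neonatal cells, and the difference did not pass the test (-0.34 ± 0.26, adjusted p = 0.584). Ccl2 rose by 3.01 ± 0.18 in the neonatal contrast (adjusted p = 7e-05). Lox fell in both, by 2.25 and 1.90 on the log2 scale. S100a4 differed between the contrasts: it was at 934 and 1043 CPM in NF1 and NF2 and 1101 and 954 CPM in NF0_1 and NF0_2, and the contrasts differed by -2.88 ± 0.22 (adjusted p = 0.00146). For Upk1b the contrasts differed by -7.32 ± 0.64 (adjusted p = 0.00321). Col14a1, at 1.48 and 1.67 CPM in AF0, was at 86.7 and 81.2 CPM in NF0_1 and NF0_2, and its contrasts differed by 5.96 ± 0.67 (adjusted p = 0.0112). The interferon list had a median of 0.35 in the neonatal contrast and 1.53 in the adult one. Of its members 0 had a called difference, beside 0.891% of all genes tested, so nothing is read from that count. The chemokine list stood at 1.36 and 1.45, and 2 of its members had a called difference. These were Csf1 (-2.14 ± 0.23, adjusted p = 0.0112) and Ptgs2 (-4.14 ± 0.55, adjusted p = 0.0131).

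**Figure D5:**
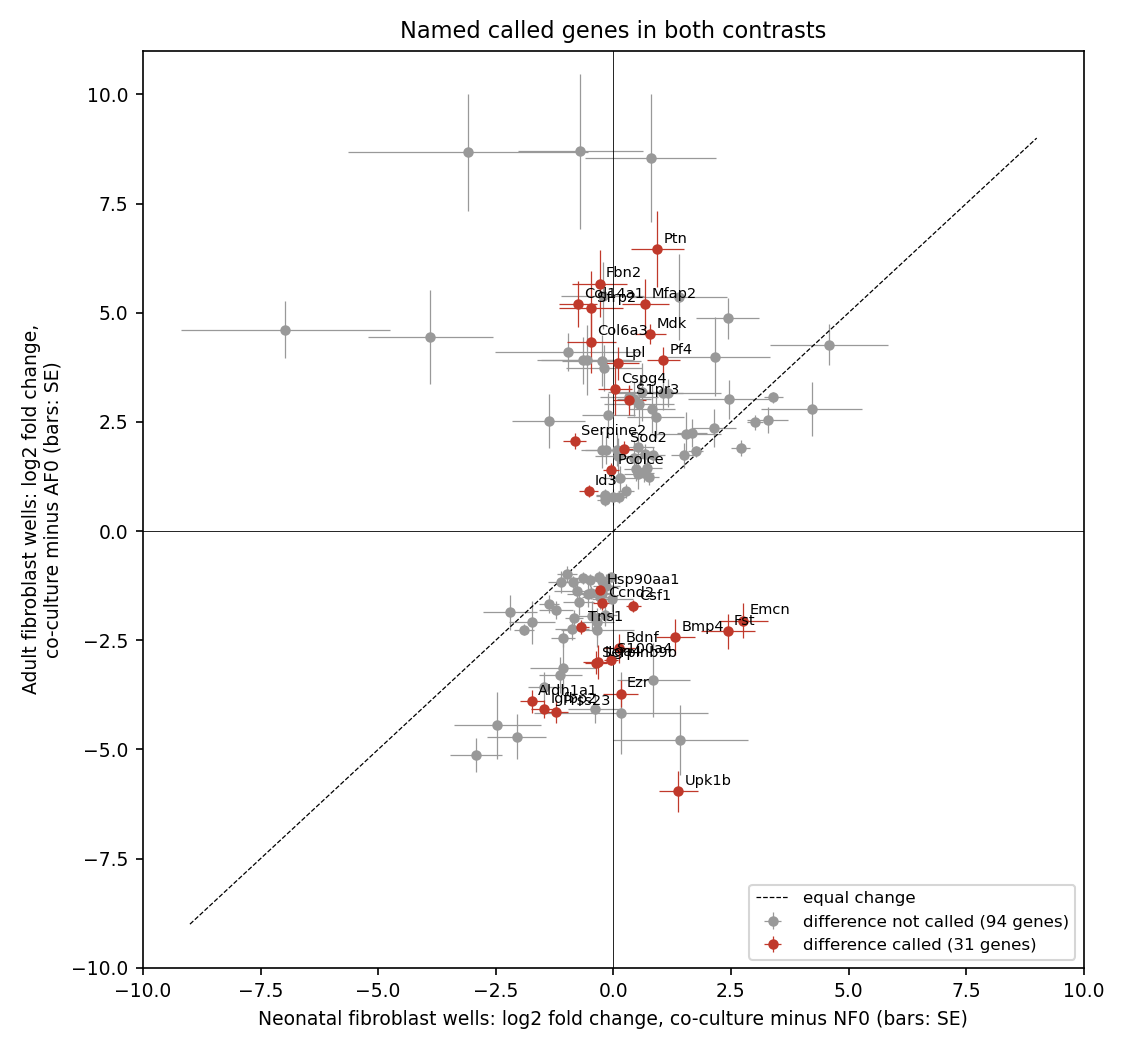
Log2 fold change of co-culture minus the 0 wells in adult (y axis) against neonatal fibroblasts (x axis) for 125 genes called in the adult contrast; points are estimates, bars their SE, and the dashed line marks equal change. The difference is called for 31 genes (red), among them Upk1b, whose change was -5.95 in adult and 1.38 in neonatal cells.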

How the data were processed

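Single cells of 1 nanowell chip were sequenced with UMIs. The deposited matrix holds UMI counts per gene and well, which the authors made by trimming, screening for contaminants, aligning with STAR 2.5.2b to mm10 and counting with featureCounts (Subread 1.4.6-p1) over Ensembl genes, per the study's methods and the submitters' processing notes. Whether strand was used is not given in the sources used here, so genes that overlap others are uncertain. Wells were assigned to sets by the Type that the chip's well report gives each barcode. The 2 chips share 269 barcodes, which are well positions, and each matrix was joined only to its own report. No doublet caller was run, since wells with a single living cell had been picked by imaging.

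Counts were summed per well set, which is a division of 1 GEO sample, leaving out 79 spike-in columns and 34 mitochondrial genes. Genes seen in at least 10 kept wells and passing filterByExpr were tested with edgeR 4.0.16 (quasi-likelihood, TMM, group as the only term, R 4.3.3), and calls needed a Benjamini-Hochberg adjusted p below 0.05 with a log2 change beyond 0.58. SEs are the fold change divided by the square root of F. DESeq2 1.42.0, limma 3.58.1, other scalings, filters, well filters and a replicate block were alternatives; leaving out wells with macrophage, endothelial or epicardial genes was chosen after seeing the data. The fits were tested on simulated data. Of the genes, 538 have no symbol (0.540% of UMIs). Summed counts weight deep wells, and fewer cells that express a gene and less RNA per cell cannot be told apart. Counting error alone is smaller than the spread between sets.

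Named genes were the 12 largest called rises and falls with non-overlapping sets and a mean of at least 50 CPM (gene models, ribosomal pseudogenes and the 11 rule genes left out), up to 4 called members with the largest change per list (the 2 most abundant where none was called), 7 genes from the study's text, and the rule and sex-linked genes. Ccl2, Ccl7, Cxcl5, Nfkbia, Csf1, B2m, Psmb8, Zbp1, Igf1, Pdgfa, Acta2, Tagln, Cald1, Smad6, Id3, Sod2, Gm42418 and other list members outside these rules were chosen after their values were seen. Members and lists were chosen with earlier results of these data known. Gene positions come from the GENCODE annotation of GRCm38, and promoters from RefSeq. Some list members are not reported here.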

Additional observations from a re-analysis of the deposited data

Results flagged for a closer look

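For 33 named genes the change from AF0 to co-culture in adult fibroblasts differed from the change in neonatal fibroblasts by the interaction test of edgeR (adjusted p under 0.05). Over all genes tested it was 124 of 13917 (0.891%). Most named genes were chosen for a large change in adult fibroblasts, which is a part of this difference, so nothing is read from their count. Ptgs2, also called, is given above. The difference, adult minus neonatal on the log2 scale, was above 0 for Mdk (3.74), Pf4 (2.85), Lpl (3.74), S1pr3 (2.66), Col14a1 (5.96), Col6a3 (4.82), Pcolce (1.45), Fbn2 (5.96), Mfap2 (4.48), Serpine2 (2.89), Ptn (5.52), Sfrp2 (5.56), Cspg4 (3.28), Ddx3y (5.78), Eif2s3y (4.01), Id3 (1.44) and Sod2 (1.67). It was below 0 for Upk1b (-7.32), Prss23 (-2.91), Igfbp2 (-2.60), Aldh1a1 (-2.16), Ezr (-3.87), Serpinb9b (-2.64), S100a4 (-2.88), Tns1 (-1.52), Bmp4 (-3.74), Fst (-4.73), Ccnd2 (-1.40), Hsp90aa1 (-1.06), Bdnf (-2.81), Itga4 (-2.68), Emcn (-4.81) and Csf1 (-2.14). Of these 33, 2 (S100a4 and Upk1b) were called whichever of the 8 well sets was left out. Ddx3y and Eif2s3y are Y-linked, and the share of cells from male animals was not tested. The kept neonatal wells held more RNA of the 5 cardiomyocyte genes of the rule than the adult ones. Its part in these differences was not tested.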

How the results depend on the processing

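The 1425 called genes became 2273 with DESeq2's Wald test, 2527 with no filter on low counts (25816 genes tested) and 948 without wells of high epicardial sum, and 333 to 1251 when 1 well set was left out (376 without AF0_1, 333 without AF0_2, 1111 without AF1), where 1 group is left with a single set. The remaining alternatives gave 1077 to 1736. With total UMI counts in place of TMM, 45.9% of the calls were higher in co-culture, against 52.9%. The 124 differences from the neonatal contrast became 668 (DESeq2), 793 (no filter), 15 (without wells with cardiomyocyte genes) and 42 (without wells of high epicardial sum), and 4 to 333 when 1 well set was left out. Causes were not tested. The count of gene lists with a median above 0, 16 of 30, stayed between 14 and 19.

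Signs turned for Acta2 (0.030 with no filter, 0.00042 with CPM over 10, 0.018 without wells with cardiomyocyte genes, 0.00012 with the block), Tnnc1 (0.29 with the complete well filter and 0.29 with wells weighted equally), Ttn (0.86 with wells weighted equally), Tnni3 (-0.17 without wells of high epicardial sum) and the adult minus neonatal difference of Ptn (-0.45 without wells with cardiomyocyte genes). Leaving out 1 set gave -0.15 to 0.14 for Acta2 (above 0 without AF2 or AF0_2), -1.90 to 0.69 for Tnnc1 (above 0 without AF2 or AF0_2), -1.16 to 0.11 for Ttn and -0.63 to 0.094 for Atp2a2 (both above 0 without AF0_1), and -1.17 to 3.01 for Lyz2 and -2.13 to 4.28 for Fcer1g (both below 0 without AF1). Each is a log2 value, and only that of Ptn had passed the test. Over 152 named genes and their alternatives, 2287 values kept direction and side of the threshold, 245 kept direction but lost the call, 18 gained it and 16 changed sign. Of 137 named calls, 68 held whichever set was left out.

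With the well-set number as a replicate block, 1532 genes were called, 1331 of them among the 1425. The numbers are not stated to pair the sets, and deviations of same-numbered sets correlated at 0.024 across genes. With 2 well sets per group, many changes could go uncalled. In the simulated data, edgeR called 5 of 100 genes changed by 1 on the log2 scale and 17 of 100 changed by 1.5. For the difference from the neonatal contrast edgeR called 2 and 6 of 100, again with the spread of the adult sets. The simulated share of changed genes was below the 10.7% called in the data, so these rates do not carry over directly. A gene that did not pass the test is therefore not shown to be unchanged.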
